A study of Homo sapiens with 21 samples.

Results

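The window of 3000 kb on chromosome 8 that holds the MYC and PVT1 genes and the gene desert around them was examined for RUNX1 binding in Jurkat cells. Its members are all peaks of 14 lists whose summit lies between 127900 and 130900 kb of chromosome 8 (hg19), with MYC at 128748 to 128754 kb, PVT1 at 128806 to 129114 kb and a distal part beyond 130000 kb. They number 1711 of 791439 peaks. Summit windows of 100 bp on each side that overlapped between lists were merged, which gave 483 regions in the window of 190855 in all. Positions are given as kb from the MYC start, negative before it, with MYC and PVT1 placed to the nearest kb.

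RUNX1, which binds DNA and directs the formation of blood cells, was mapped by chromatin immunoprecipitation and sequencing (ChIP-seq) in untreated single clones of the established human T-cell leukaemia line Jurkat. In the R232fs clones (a frameshift), the Y287X clones (a stop codon) and the G365R clones (a change of 1 amino acid), the HA tag marked mutant RUNX1 and the TY1 tag the wild-type RUNX1 of the same cells. The WT clone carried wild-type RUNX1 under both tags. Each mutant genotype had 2 clones with 1 HA and 1 TY1 list each, the WT genotype had 1 clone with 1 list of each tag, and for the 7 control samples no list was analysed here. Every genotype therefore rests on 1 or 2 single-cell clones, and WT on 1. The lists hold no expression values, so neither the level of MYC and PVT1 RNA nor the identity of the line could be checked in them.

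MYC encodes a transcription factor that drives cell growth and division and is often raised in T-cell leukaemia. PVT1 is a long non-coding RNA gene that hosts several microRNA genes and contains enhancers. The desert beyond PVT1 is known for enhancers that act on MYC over long distances in a cell-type specific way, among them, in T-cell leukaemia, an enhancer under the control of the receptor NOTCH1. In a gene table of another build (GRCh38.p14, used for names and order only), CASC11, a long non-coding RNA gene, is the gene next to MYC on its near side, and POU5F1B is the nearest protein-coding gene before MYC. GSDMC, a gasdermin gene, is the nearest protein-coding gene after PVT1. PVT1 holds 4 microRNA genes, MIR1204 to MIR1207, and 9 long non-coding RNA genes, CCDC26 among them, lie between PVT1 and GSDMC.

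A list had 30563 to 86433 peaks over chromosomes 1 to 22 and X. Fold enrichment is the authors' value for a peak, a linear ratio of signal over background. Genome-wide the highest fold of a list was 174 to 369 in R232fs and Y287X and 61.0 to 89.3 in G365R and WT, and the highest −log10 p was 2673 to 5706 in R232fs and Y287X and 513 to 665 in G365R and WT. Because every list of one set lay above every list of the other, under both tags, an effect of genotype on a difference between these 2 sets cannot be told apart from one of how the lists were made. The lists do not give read depth, so list length stands beside the counts instead. 

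RUNX1 summits were spread along the whole window in every list, and the highest lay far from the gene bodies. In R232fs the window held 162 and 98 HA peaks and 88 and 64 TY1 peaks, with the first clone given before the second. In Y287X it held 88 and 105 HA peaks and 76 and 128 TY1 peaks. In G365R it held 92 and 101 HA peaks and 157 and 204 TY1 peaks, and in WT 156 HA and 192 TY1 peaks. Mutant HA peaks were therefore more numerous than TY1 peaks in both R232fs clones, fewer in both G365R clones, and on either side in Y287X. The density of summits was above that of the genome in every list, from 1.06 times in the second R232fs TY1 list to 4.09 times in the WT HA list.

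**Figure D1:**
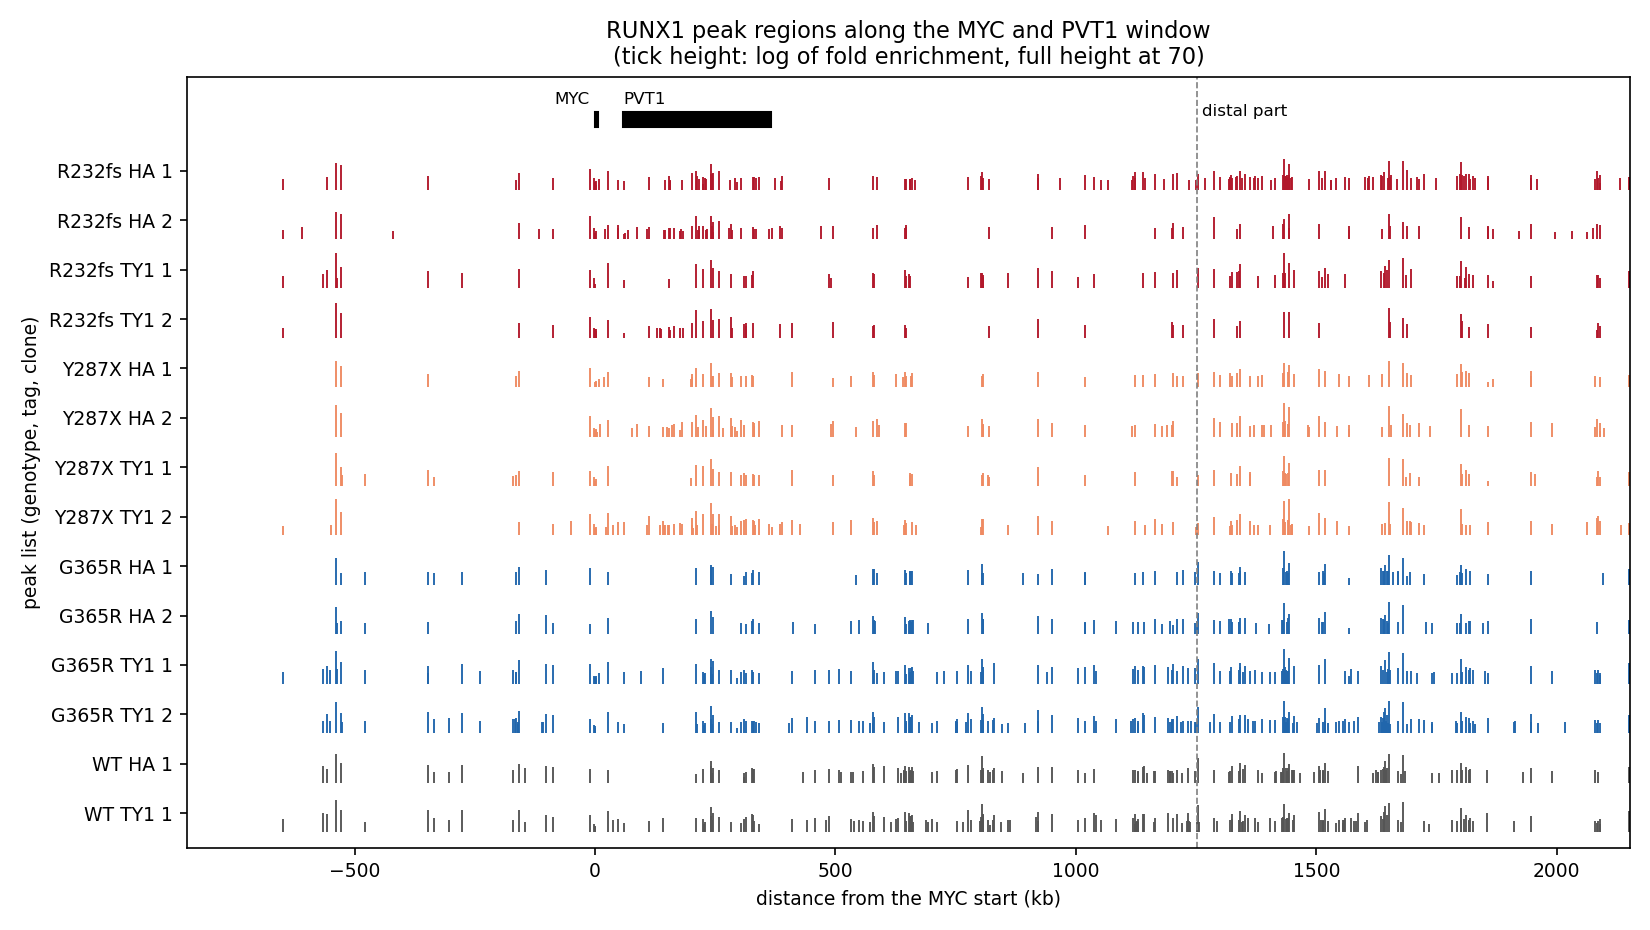
Position of every peak region of each of the 14 lists (rows, named by genotype, tag and clone) along the window, in kb from the MYC start, with tick height on a log scale of fold enrichment. The tallest ticks stand at -538.7 kb and in the distal part, and the ticks at MYC itself are short or missing.

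In the mean of the 6 mutant clones, the number of window peaks did not differ between HA and TY1 past the threshold. The mean HA over TY1 ratio was 0.959 (-0.06 on the log2 scale, exact permutation of tags within genotype p = 0.852, 2-sided, HA higher in 3 of 6 clones). The R232fs clones had ratios of 1.84 and 1.53, the Y287X clones 1.16 and 0.82 and the G365R clones 0.586 and 0.495, beside 0.8125 in WT without a mutation. Over the whole lists the HA over TY1 ratios were 1.94 and 1.46, 1.04 and 0.829, 0.533 and 0.495, and 0.63 in WT, in the same order of clones. The count in the window thus had the same direction as the length of the lists in all 7 clones.

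Relative to the length of its list, the window held fewer peaks in R232fs and Y287X than in G365R and WT, under both tags. Per 10000 peaks of a list it held 20.9 and 11.3 HA and 21.9 and 10.8 TY1 peaks in R232fs. For Y287X the values were 17.0 and 15.5 HA and 15.3 and 15.7 TY1, and for G365R 30.1 and 33.0 HA and 27.4 and 33.0 TY1. In WT they were 41.6 HA and 32.3 TY1. The 8 R232fs and Y287X lists, at 10.8 to 21.9, did not overlap the 6 G365R and WT lists, at 27.4 to 41.6. With all lists shortened to the 30563 peaks of lowest p, the window held 20 to 57 peaks in R232fs and Y287X lists and 58 to 117 in G365R and WT lists, again without overlap. With only peaks of −log10 q of 10 or more the sets overlapped, at 8.45 to 16.9 per 10000 in R232fs and Y287X and 16.7 to 31.0 in G365R and WT. No test was made of this split, and 4 lists against 2 of 1 tag cannot give an exact p below 0.0667.

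The difference between the 2 sets of lists lay outside PVT1. Inside PVT1 the R232fs and Y287X lists held 2.61 to 4.44 summits per 10000 peaks. The G365R and WT lists held 2.62 to 3.74 there, so that the 2 sets overlapped. Between PVT1 and the distal part the R232fs and Y287X lists held 1.97 to 5.48, against 8.37 to 16.0 in the G365R and WT lists. In the distal part the values were 3.04 to 10.4 in R232fs and Y287X and 10.98 to 17.9 in G365R and WT. Before MYC they were 0.592 to 2.74 and 3.03 to 4.05. With lists of equal length the desert after PVT1 still parted the sets (1 to 13 against 18 to 42 peaks), whereas before MYC (4 to 10 against 9 to 12) and in the distal part (8 to 25 against 23 to 51) they overlapped.

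**Figure D2:**
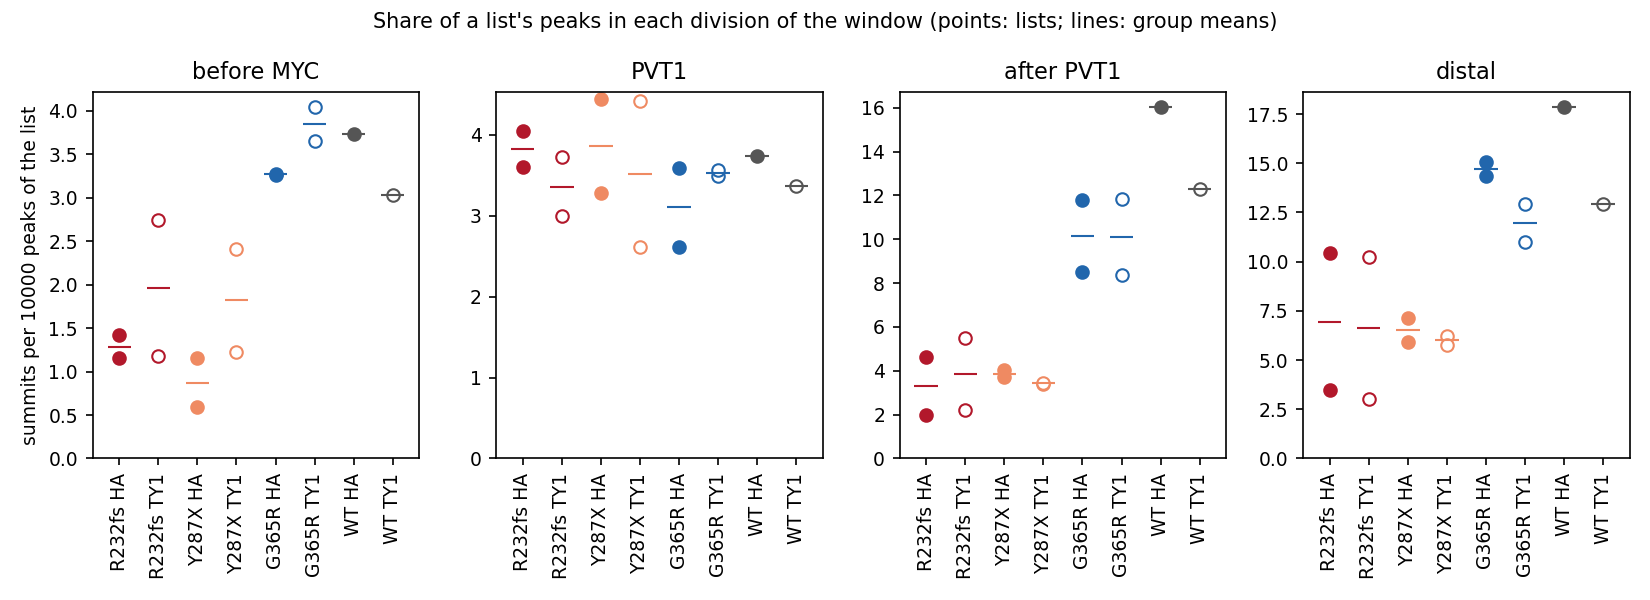
Summits per 10000 peaks of a list (vertical axis, a different scale in each panel) in 4 divisions of the window, for the HA and TY1 lists of each genotype, with each list as a point and the group mean as a line. In the PVT1 panel the genotypes overlap, while after PVT1 every R232fs and Y287X list (1.97 to 5.48) lies below every G365R and WT list (8.37 to 16.0).

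HA and TY1 did not differ past the threshold in the share of the list that fell in the window. The mean difference was 0.613 peaks per 10000 (exact permutation p = 0.694, HA higher in 4 of 6 clones). Within the window, the share of summits in the distal part was higher for HA in 6 of 6 mutant clones. It was 50% HA and 46.6% TY1 in the first R232fs clone and 30.6% and 28.1% in the second. In Y287X it was 42.0% HA and 40.8% TY1 in the first clone and 38.1% and 36.7% in the second. In G365R it was 47.8% HA and 40.1% TY1 in the first clone and 45.5% and 39.2% in the second. The 2 R232fs clones lay further apart than the 2 tags of any clone. The mean gap was 3.76 percentage points (exact permutation of tags within genotype p = 0.343), and with the 2 lists of a clone paired the exact p was 0.0313, the smallest that 64 arrangements allow. In WT, with the same protein under both tags, the share was 42.9% HA and 40.1% TY1, a gap of 2.84 points in the same direction. With only peaks of fold 5 or more the mean gap was 8.88 points (exact permutation p = 0.0185, HA higher in 6 of 6 clones). With only peaks of −log10 q of 10 or more it was 4.82 points (exact permutation p = 0.278), and with lists of equal length 4.8 points (exact permutation p = 0.204). In both of these HA was higher in 5 of 6 clones, the second Y287X clone being the exception. In WT the share was 41.4% HA and 32.1% TY1 with −log10 q of 10 or more. With lists of equal length it was 43.6% HA and 32.4% TY1. In both settings the WT gap was thus wider than the mean gap of the mutant clones. The WT shares with fold 5 or more are not given here, so the 8.88 points have no same-protein value beside them.

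Of the 483 regions 15 were in all 14 lists (3.11%), beside 5.92% of all regions genome-wide, and 223 were in a single list (46.2%, beside 42.3%). The 15 shared regions lay 3 before MYC, 1 between MYC and PVT1, 3 in PVT1, 1 after PVT1 and 7 in the distal part, and none in the MYC gene. Of these, the 12 that ranked highest lay at -538.7, -528.6, -9.8, 27.8, 209.0, 245.7, 1432.5, 1444.1, 1505.5, 1650.8, 1680.0 and 1800.2 kb. The other 3 lay at 328.6, 578.2 and 1288.3 kb. A total of 50 regions (10.4%, beside 16.0% genome-wide) were in 10 or more lists, 19 of them in the distal part, 13 after PVT1, 9 in PVT1 and 7 before MYC.

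The strongest region of the distal part was at 1432.5 kb (chr8:130180385-130180614), with a median fold of 32.5. Its fold was 32.3 and 9.77 for HA and 54.3 and 17.9 for TY1 in R232fs, and 16.3 and 45.3 for HA and 30.8 and 49.4 for TY1 in Y287X. In G365R it was 45.2 and 32.7 for HA and 49.1 and 37.6 for TY1, and in WT 28.7 for HA and 25.0 for TY1. The second R232fs clone gave the lowest HA value, and every other list was above 16. The 14 summits of this region lay within 29 bp of each other, against a median spread of 93 bp over the 15 regions and 95 bp over all 11291 shared regions. The NOTCH1-controlled enhancer of T-cell leukaemia is described at a distance downstream of MYC close to this one. Whether the region overlaps it was not tested, since no hg19 annotation of enhancers was at hand.

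Before MYC, in the direction of POU5F1B, the region at -538.7 kb (chr8:128209184-128209444) had the highest median fold of the window, 35.7. Its fold was 21.1 and 20.1 for HA and 57.5 and 48.7 for TY1 in R232fs, and 20.5 and 36.2 for HA and 42.2 and 62.3 for TY1 in Y287X. In G365R it was 21.9 and 22.7 for HA and 39.2 and 35.2 for TY1, and in WT 24.3 for HA and 37.6 for TY1. The HA value was below the TY1 value in all 7 clones, the WT clone included. This region or that at 1432.5 kb was the highest peak of the window in 13 of the 14 lists. The exception was the second G365R HA list, where the region at 1650.8 kb (chr8:130398686-130398933) led with a fold of 38.8.

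The next regions of the distal part were also strong in most lists. At 1650.8 kb the fold ranged from 15.9 to 42.2 over the 14 lists, and at 1680.0 kb (chr8:130427784-130428154) from 6.58 to 35. The lowest values at both belonged to the second R232fs HA list. At 1444.1 kb (chr8:130191983-130192255) the fold was 7.87 to 60.0, and at 1800.2 kb (chr8:130548012-130548284) 8.95 to 23.6. At both of these the WT HA list was lowest and a Y287X list of the second clone highest. Ranked by fold among the 11291 shared regions of a list, the regions at 1432.5, -538.7, 1650.8 and 1680.0 kb had median percentiles of 97.6, 97.5, 95.5 and 94.3. The last of the 15, at 328.6 kb in PVT1, had a median percentile of 25.0.

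The 3 regions found in most lists between PVT1 and the distal part had lower median folds than the regions at 1432.5, 1444.1, 1650.8, 1680.0 and 1800.2 kb. The region in all 14 lists, at 578.2 kb (chr8:129326049-129326342), had a median fold of 5.99 and a range of 3.39 to 11.3, with the lowest value in the second R232fs HA list and the highest in the first G365R TY1 list. The region at 645.0 kb (chr8:129392707-129393195) was in 13 lists, with a fold of 3.39 to 10.1, and was missing from the first Y287X TY1 list. The region at 1202.5 kb (chr8:129950314-129950711) was also in 13 lists, with a fold of 2.83 to 9.46, and was missing from the first G365R HA list.

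**Figure D3:**
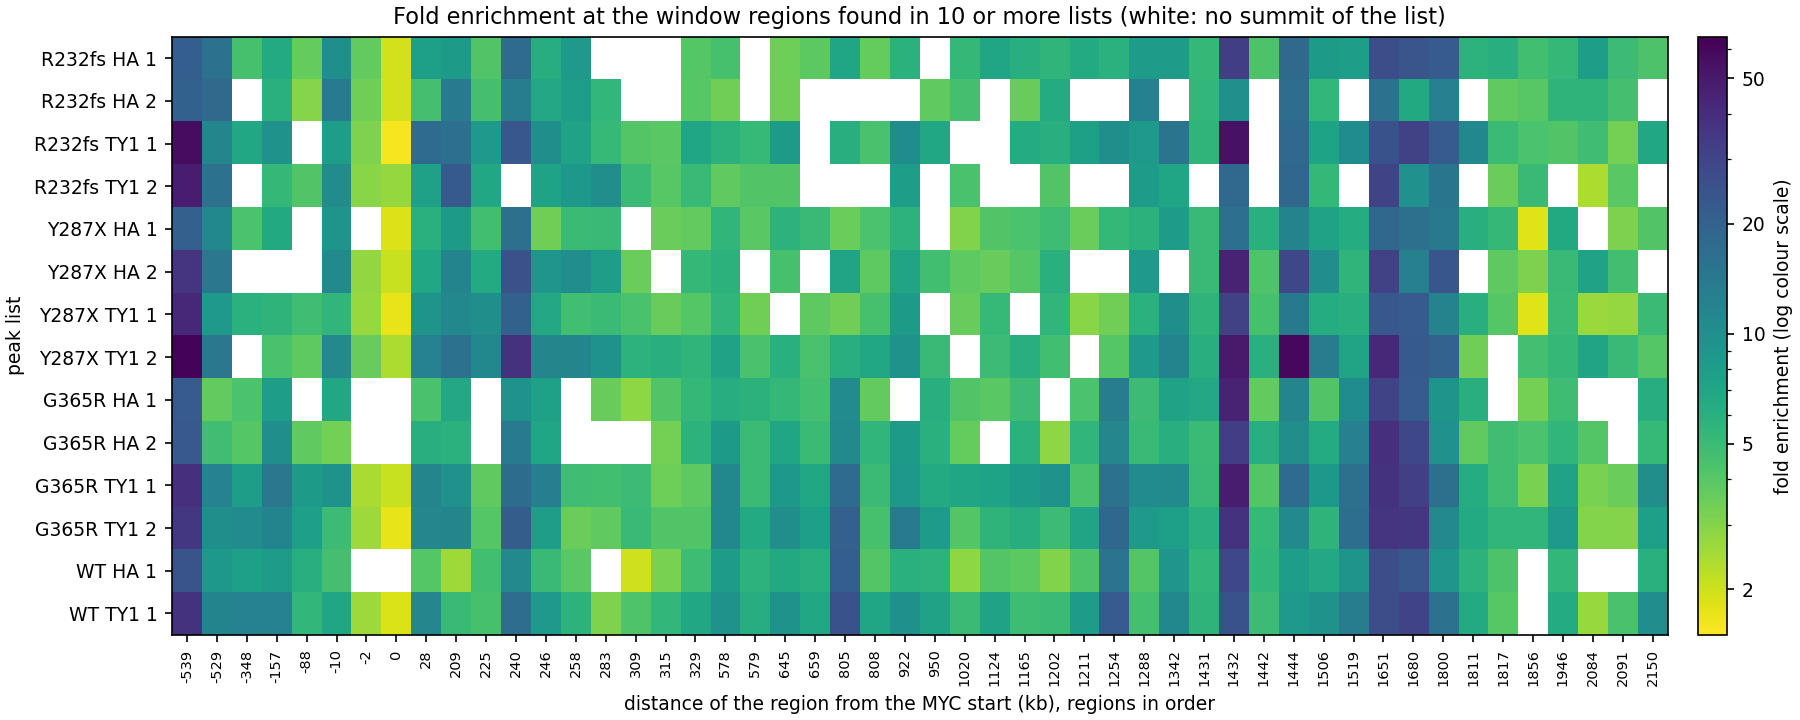
Fold enrichment (colour, log scale) at the 50 window regions found in 10 or more lists (columns, in order of their distance from the MYC start in kb) for each list (rows), with white where a list had no summit. The darkest columns are at -538.7 kb and from 1432.5 to 1800.2 kb, the columns at MYC are the palest, and the rows of the second R232fs clone have the most gaps after PVT1.

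RUNX1 peaks at the MYC gene itself were weak and not found in every list. The region at its start (0.3 kb, chr8:128747910-128748666) was in 11 lists, with folds of 1.57 to 2.72. It was in all 8 R232fs and Y287X lists, in both G365R TY1 lists and in the WT TY1 list, and in neither G365R HA list nor the WT HA list. No whole peak of those 3 lists overlapped the gene, which held 1 to 4 peaks in each of the other lists. They are the 3 shortest lists, with 30609, 30563 and 37472 peaks. The absence was seen with wild-type protein under the HA tag too. With lists of equal length both G365R TY1 lists and the WT TY1 list had 0 summits in the gene as well, like the 3 HA lists, while 7 of the 8 R232fs and Y287X lists had 1 to 3. The regions on either side, at -1.6 and 2.1 kb, were in 10 and 8 lists with folds of 2.41 to 3.69 and 1.63 to 2.68. The nearest shared regions were at -9.8 kb (chr8:128738049-128738396, fold 3.31 to 13.8) and 27.8 kb (chr8:128775546-128775948, fold 4.04 to 17.5).

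At the start of PVT1, placed to the nearest kb, RUNX1 peaks were weak and lay just inside the gene. The region there, at 59.5 kb (chr8:128806925-128807903), was in 8 lists with folds of 1.72 to 4.55, and the nearest edges of their peaks were 1023 to 1562 bp from that start. In the other 6 lists the nearest peak was 18338 bp or more away. The body of the gene held 8 to 36 summits per list. Its strongest region, at 240.2 kb (chr8:128988047-128988335), had a median fold of 17.2 and was in 13 lists. In the second R232fs TY1 list the summit of that place lay at 241.0 kb, with a fold of 27.4 and a peak of 2623 bp, so that the gap is one of summit position. The shared region at 209.0 kb (chr8:128956869-128957141) had folds of 8.34 and 13.6 for HA and 16.5 and 22.5 for TY1 in R232fs, and of 8.36 and 11.8 for HA and 11.2 and 15.7 for TY1 in Y287X. In G365R they were 6.72 and 5.87 for HA and 9.6 and 11.5 for TY1, and in WT 2.56 for HA and 5.11 for TY1. Both WT lists were below all 12 mutant-clone lists at this region.

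Within clones, HA and TY1 summits of the shared regions lay close together. The median distance was 28 and 7 bp in the 2 R232fs clones and 16 and 15 bp in those of Y287X. In G365R it was 21 and 35 bp and in WT 25 bp. Over all shared regions of the genome the medians were 15 to 25 bp.

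The rank of the 15 shared regions was compared between mutant and wild-type protein with limma, on normal scores of the fold rank within a list over all 11291 shared regions. A difference is in units of these scores, of which 1 is 1 SD of a list. Without a clone term 0 window regions were called for HA minus TY1 in R232fs, Y287X or G365R, beside 0% of the 11291 regions in each (adjusted p under 0.05). At an unadjusted p under 0.05 limma counted 2 window regions in R232fs, 0 in Y287X and 2 in G365R, and 1368, 463 and 590 genome-wide. HA and TY1 lists of a clone deviate together, and with clone as a term 3 window regions were called in R232fs, beside 21.7% of all regions. With that term 0 were called in Y287X, beside 0.815%, and 2 in G365R, beside 4.08%. At an unadjusted p under 0.05 limma with that term counted 5 window regions in Y287X and 2460 genome-wide. The share in R232fs is near its background.

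In R232fs HA ranked lower than TY1 at -538.7 kb and 27.8 kb and higher at -528.6 kb (chr8:128219261-128219511). At -538.7 kb the percentiles were 92.9 and 92.2 for HA and 98.6 and 97.6 for TY1 in R232fs, a difference of -0.64 ± 0.10 (SE, limma with the clone term, adjusted p = 0.00753). Both HA values lay below both TY1 values. At 27.8 kb they were 57.0 and 16.9 for HA and 82.8 and 34.3 for TY1, a difference of -0.66 ± 0.16 (limma adjusted p = 0.0229), with the 2 clones far apart. At -528.6 kb they were 86.9 and 89.5 for HA and 70.1 and 77.9 for TY1, a difference of 0.54 ± 0.16 (limma adjusted p = 0.044). In the WT clone the percentiles of HA and TY1 were 97.5 and 99.0 at -538.7 kb, 44.3 and 78.0 at 27.8 kb, and 80.1 and 79.9 at -528.6 kb. At the first of these and at 27.8 kb WT, without a mutation, thus had the direction seen in R232fs. The differences of Y287X and G365R (limma with the clone term) were negative at both places too, and none was called. They were -0.31 and -0.27 at -538.7 kb and -0.38 and -0.52 at 27.8 kb. Leaving out either R232fs clone ended the calls at 27.8 and -528.6 kb, as did either Y287X clone at -528.6 kb, while that at -538.7 kb held without any one mutant clone (limma adjusted p of 0.0103 to 0.0422). Other regions were called in their place, at 1288.3 kb without the first R232fs clone (1.09 ± 0.21, limma adjusted p = 0.0242) and at -9.8 kb without either Y287X clone (0.62 ± 0.17, limma adjusted p of 0.0403 and 0.0411).

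In G365R the mutant protein ranked lower than the wild-type protein at -528.6 kb and higher at 328.6 kb (chr8:129076411-129076833). At -528.6 kb the percentiles were 37.8 and 50.6 for HA and 77.2 and 71.2 for TY1, a difference of -0.80 ± 0.16 (limma with the clone term, adjusted p = 0.0378). The folds behind them were 3.69 and 4.74 for HA and 12.2 and 9.94 for TY1, without overlap. At 328.6 kb the percentiles were 59.6 and 60.8 for HA and 13.4 and 26.8 for TY1, a difference of 1.12 ± 0.21 (limma adjusted p = 0.0334). Both calls were lost without any one of the G365R or Y287X clones. In WT the percentiles at 328.6 kb were 53.9 for HA and 56.8 for TY1.

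The HA minus TY1 difference of the truncating genotypes, R232fs and Y287X averaged, was also set against that of G365R. Without a clone term 0 window regions were called, beside 0% genome-wide. At an unadjusted p under 0.05 limma counted 3 window regions and 1177 genome-wide. With the clone term 2 were called, beside 17.1%, a share near its background. At -528.6 kb, where HA ranked above TY1 in all 4 truncating clones (80.9 and 80.5 for HA and 60.7 and 67.6 for TY1 in Y287X) and below it in both G365R clones, the difference was 1.32 ± 0.19 (limma adjusted p = 0.00711). At 328.6 kb it was -1.14 ± 0.26 (limma adjusted p = 0.0226). Without the first G365R clone neither was called, and without the second, or without the first Y287X clone, that at 328.6 kb was lost. An additional region was called without the first R232fs clone, at 1288.3 kb, and without the second Y287X clone, at -9.8 kb.

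**Figure D4:**
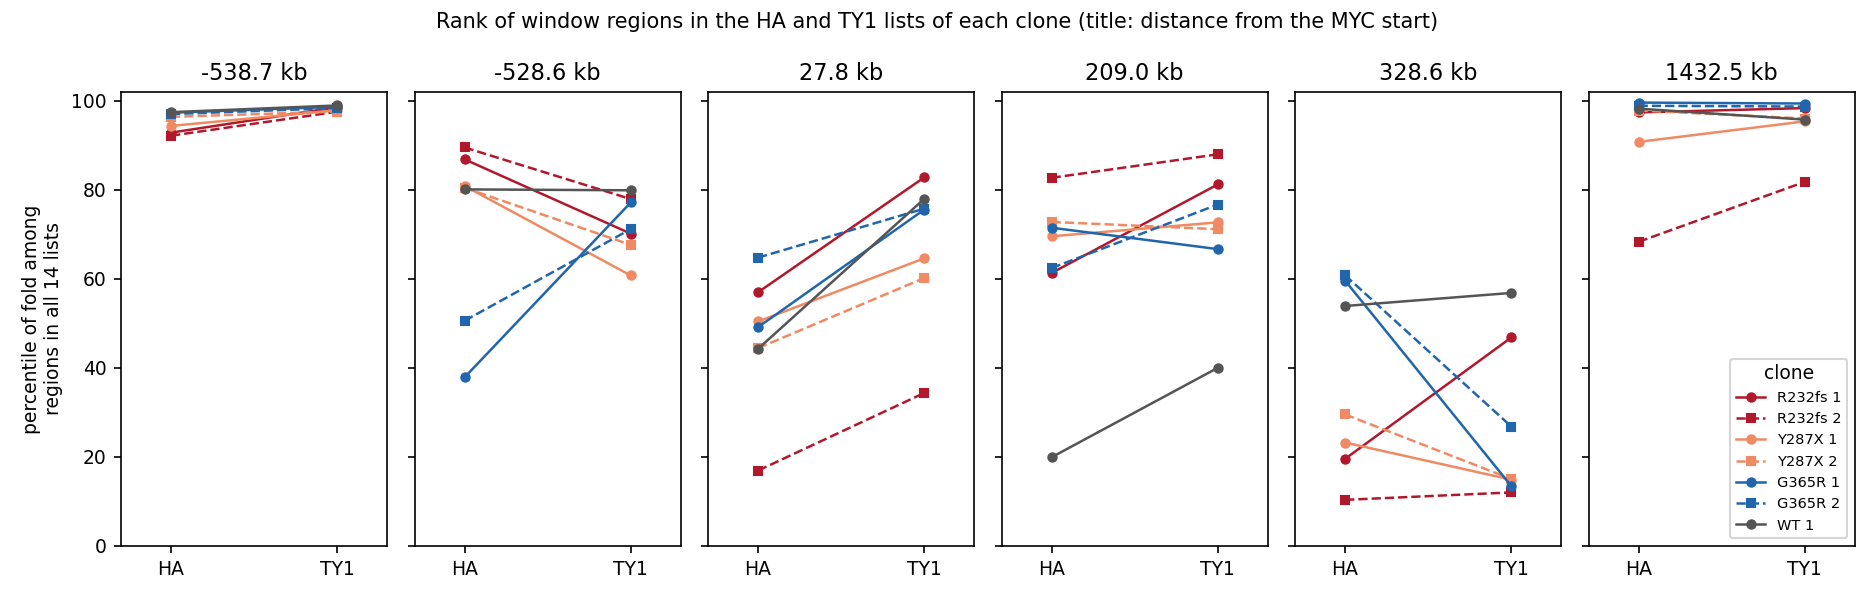
Percentile of fold among the 11291 shared regions (vertical axis) in the HA and TY1 lists of each clone (joined points), at 6 window regions named by their distance from the MYC start. At -528.6 kb the lines of the 4 R232fs and Y287X clones run down to TY1 and those of the 2 G365R clones run up, while the WT line is level (80.1 and 79.9).

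Against the WT HA list, truncated HA ranked higher at 209.0 kb, inside PVT1, by 1.43 ± 0.30 (limma without a clone term, adjusted p = 0.0468). This was 1 of 15 window regions, beside 1.51% of all regions. The percentiles were 61.3 and 82.7 in R232fs HA, 69.6 and 72.8 in Y287X HA and 19.9 in WT HA. For TY1, where both sides carry wild-type protein, they were 81.2 and 88.0 in R232fs, 72.7 and 71.1 in Y287X and 40.0 in WT. With a random clone effect the adjusted p was 0.0707 and 0 window regions were called, beside 1.22%. WT HA is a single list. For G365R HA against WT HA 0 window regions were called, beside 0%, and again 0 with the clone effect. At an unadjusted p under 0.05 limma without that effect counted 2 window regions and 354 genome-wide. The percentiles of G365R HA at 209.0 kb were 71.5 and 62.4.

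Regions found with only 1 tag were few in R232fs and Y287X, and in G365R the tag that held more of them turned with the length of the lists. In R232fs 9 window regions (1.86%, beside 3.98% genome-wide) were found by both HA lists alone, and 3 (0.621%, beside 0.27%) by both TY1 lists alone. In Y287X there were 3 of each kind, beside 0.679% of all regions for HA and 1.2% for TY1. In G365R 2 were in both HA lists only (beside 0.24%) and 49 (10.1%, beside 7.85%) in both TY1 lists only. The WT clone had 46 regions in the HA list only (9.52%, beside 3.33%) and 82 in the TY1 list only (17.0%, beside 14.8%). With lists of equal length, which gave 211 window regions, G365R had 16 HA-only regions (beside 2.42% genome-wide) and 6 TY1-only regions (beside 3.92%). WT, with wild-type protein under both tags, then had 54 HA-only regions (beside 10.93% genome-wide) and 8 TY1-only regions (beside 10.95%). R232fs then had 0 HA-only regions (beside 1.63% genome-wide) and 2 TY1-only regions (beside 1.07%).

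The regions of 1 tag were of low to moderate fold. They were ranked by the median fold over every list, of any genotype, that held the region. The folds in brackets are those of the genotype and tag named. Those of R232fs HA with the highest median fold lay at 47.5 kb (2.85 and 4.58), 587.1 kb (4.07 and 4.78) and 1443.1 kb (5.32 and 3.35), and the third was in no other list. Those of R232fs TY1 lay at 579.4 kb (5.23 and 4.19), 309.4 kb (4.12 and 4.99) and 314.9 kb (3.92 and 3.97), and all 3 were in both WT lists. The Y287X HA-only regions lay at 1299.4, 1387.1 and 2080.2 kb, all in the distal part, with folds of 2.98 to 5.53 in the 2 HA lists. Its TY1-only regions lay at 1323.4, 2086.0 and -87.9 kb, with folds of 3.82 to 8.72. The G365R HA-only regions were at 1325.4 and 1799.6 kb, with folds of 3.55 to 4.15. Of these 2, 1 overlapped a peak of the other tag, so that it was HA-only in summit position alone. Of its TY1-only regions, those of highest median fold were at -557.0 kb (7.63 and 8.67), 1453.3 kb (7.06 and 6.86) and 257.6 kb (4.78 and 3.48).

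Of the 49 G365R TY1-only regions 43 were also in a WT list (87.8%, beside 81.4% of such regions genome-wide). The WT TY1 list held 39 of them (79.6%, beside 79.6%), a share at its background, and the WT HA list 27 (55.1%, beside 25.3%). A total of 16 (32.7%) were missing from WT HA but found in WT TY1, against 56.0% of such regions genome-wide. They lay 17 in the distal part, 16 after PVT1, 8 in PVT1, 7 before MYC and 1 in MYC.

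No window region was in all 4 HA lists of the truncated proteins and in no TY1 list, beside 0.0498% genome-wide. A single region, at 1335.8 kb, was in all 8 R232fs and Y287X lists and in no G365R or WT list (0.207%, beside 0.176%), with folds of 3.19 to 6.53. In turn 3 regions, at -102.0, 1638.9 and 1819.0 kb, were in all 6 G365R and WT lists and in no R232fs or Y287X list (0.621%, beside 0.252%). Their folds were 5.54 to 9.54, 4.26 to 5.6 and 3.25 to 5.73. With lists of equal length 2 of 211 window regions had this pattern (beside 0.945%). With only peaks of −log10 q of 10 or more 0 of 143 had it (beside 0.465%). At least 4 of the 6 G365R and WT lists and no R232fs or Y287X list held 19 regions (3.93%, beside 1.21%), 12 of them between PVT1 and the distal part and 6 in the distal part. That count was 14 of 211 with equal length (beside 2.88%) and 9 of 143 with −log10 q of 10 or more (beside 2.04%). At least 6 of the 8 R232fs and Y287X lists and no G365R or WT list held 4 regions (0.828%, beside 1.38%). Each such set holds both tags and both mutant and wild-type RUNX1, and it divides the same 2 sets of lists as the highest folds genome-wide.

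The second R232fs clone lacked much of the desert in both of its lists. Regions that recur in at least 6 of the 12 lists of the other clones were looked up in each list. The HA list of that clone held 41.0% of the 100 such regions of the window, against 76.9% of those in the rest of the genome. Its TY1 list also held 41.0%, against 75.2%. On the rest of chromosome 8 the shares were 75.3% and 74.2%, so that the rest of the chromosome did not share the gap. After PVT1 both lists held 25.9% of 27 such regions, and in the distal part 36.4% of 44, while in PVT1 they held 56.25% of 16. In the first R232fs clone the window shares were 75.9% for HA and 66.7% for TY1, against 86.4% and 69.9% in the rest of the genome.

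**Figure D5:**
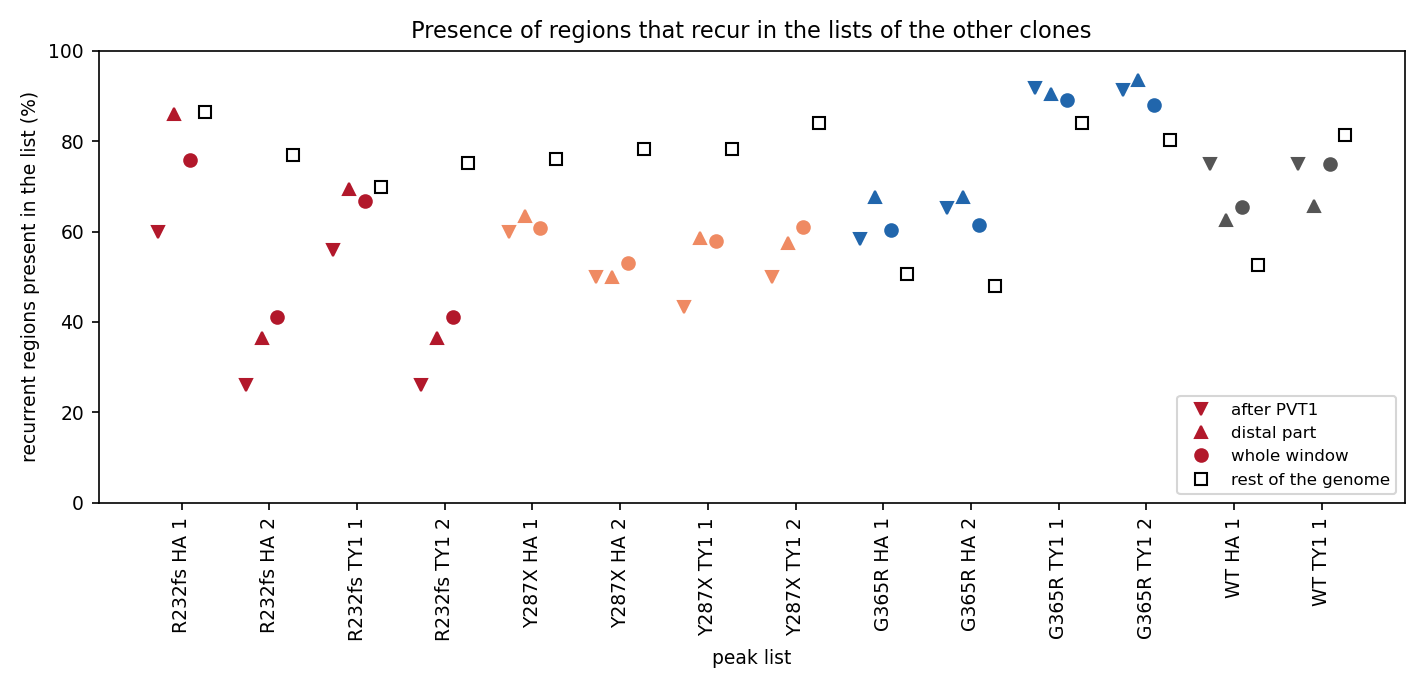
Share of recurrent regions (in at least 6 of the 12 lists of the other clones) that each list holds, in percent, after PVT1, in the distal part, in the whole window and in the rest of the genome (open squares). The 2 lists of the second R232fs clone stand lowest in the window (41.0%) although their squares (76.9% and 75.2%) lie among those of the other R232fs and Y287X lists.

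The regions at 805.3, 1518.9 and 1253.7 kb were chosen after their values were seen, among those found in the first R232fs clone alone. They illustrate the gap between the R232fs clones and are no further support for it. At 805.3 kb the first clone had folds of 7.12 for HA and 6.01 for TY1, and the region was in every list except both of the second clone. The region at 1518.9 kb was likewise missing from only those 2 lists, with folds of 7.93 for HA and 10.5 for TY1 in the first clone. At 1253.7 kb, at the edge of the distal part, the first clone had 5.9 for HA and 9.93 for TY1, and the second clone and the second Y287X HA list had none. At the shared region at 1680.0 kb the percentiles were 42.8 for HA and 52.4 for TY1 in the second clone, against 94.8 and 93.8 in the first. At 1432.5 kb they were 68.3 and 81.8 in the second clone, against 97.4 and 98.4 in the first. At -538.7 kb, before MYC, the 2 clones were alike (92.2 and 97.6 in the second, 92.9 and 98.6 in the first).

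In all, 26 window regions were in both lists of the first R232fs clone and neither of the second (5.38%, beside 2.69% genome-wide), and 24 of them lay beyond PVT1. In the second clone alone there were 7 (1.45%, beside 5.38%), 3 in PVT1 and 4 after it. The split by tag held fewer regions, 9 for HA and 3 for TY1. The excess of regions in the first clone alone depended on the setting. With lists of equal length their share of the 211 window regions was below the genome-wide 5.54%. The stricter limit on −log10 q left 7 of 143, near its background (4.27%). The excess stayed with summit windows of 250 bp (27 of 422, beside 2.82%) and with whole peaks merged (28 of 424, beside 2.69%). Whether the second clone differs in the DNA or chromatin of this window was not tested, because the lists hold neither.

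The other lists also held a different share of recurrent regions in the window than elsewhere. All 4 Y287X lists were lower in the window, with 60.8% and 53.0% for HA and 57.8% and 61.0% for TY1, against 76% and 78.2% for HA and 78.2% and 84% for TY1 in the rest of the genome. All 4 G365R lists were higher, with 60.2% and 61.4% for HA, against 50.7% and 48%, and 89.2% and 88.0% for TY1, against 84% and 80.3%. The WT HA list was higher (65.5% against 52.6%) and the WT TY1 list lower (75.0% against 81.3%). No test was made of these shares.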

How the data were processed

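Deposited narrowPeak lists, 1 per library and not pooled, gave the summit of each peak and its fold enrichment (a linear ratio), −log10 p, −log10 q and score. Bowtie2 2.2.9, MACS2 2.2.7.1, CASAVA 1.8 and the build hg19 are named in the submitters' processing notes. How the caller was set, and with which controls, is not given in the sources used here. The lowest deposited −log10 q of a list was 1.30 to 1.32. Fold values are the authors' own and were compared between lists as ranks, or printed as a description. Fixation took 15 min, per the labels' protocols. Nothing says that lists of a clone came from separate cultures, so p-values measure the spread between these lists.

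The members, lists and tests were chosen with earlier results of these data known. Summit windows (100 bp on each side) of the 14 lists on chromosomes 1 to 22 and X were merged where they shared 1 bp or more. Counts were compared by exact permutation of tags within genotype (216 arrangements, 2-sided). Normal scores of fold ranks at the 11291 regions of all 14 lists were compared with limma 3.58.1 in R 4.3.3, in 8 groups of genotype and tag that share 1 spread, with Benjamini-Hochberg adjustment at 0.05. For the lone WT lists the spread of the other groups was assumed. Same-numbered HA and TY1 lists came from 1 clone, per the clone names of the deposited lists, and their deviations correlated with r = 0.792 (R232fs), 0.702 (Y287X) and 0.503 (G365R), so that the numbers pair the lists. A fit with clone as a term is given where it changes a call. Tested on simulated scores for R232fs HA minus TY1 over 11291 regions, the fit without clones found 17.0% and 69.0% of shifts of 1 and 2, and that with clones 69.0% and 99.0%, with 0.009% false calls.

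Regions named are the 12 shared regions of highest median percentile, the 3 in most lists of each division, up to 3 of highest median fold in 1 tag only per genotype, those past a threshold, and those nearest to the MYC start. The regions at 240.2, 241.0, 805.3, 1253.7, 1518.9, 1335.8, -102.0, 1638.9 and 1819.0 kb, and the definition of recurrent regions, were chosen after their values were seen. No sequence of these regions is shown. Python 3.11.15, numpy 2.4.6, pandas 2.3.3, scipy 1.17.1 and matplotlib 3.10.9 were also used.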

Additional observations from a re-analysis of the deposited data

Results flagged for a closer look

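The log2 ratio of HA over TY1 peaks in the window was 1.64 higher in R232fs than in G365R, because both R232fs clones lay above 0 and both G365R clones below it. This difference was not tested. The ratios of the whole lists differed in the same direction.

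The HA minus TY1 difference of 2 regions differed between the truncating genotypes and G365R by a test of the difference itself (limma with the clone term). They were 2 of 15 window regions, beside 17.1% of all regions, so that their share is near its background. The difference was 1.32 at -528.6 kb and -1.14 at 328.6 kb. At 328.6 kb HA was above TY1 in both G365R clones and in both Y287X clones and below it in both R232fs clones.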

How the results depend on the processing

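Within each clone the HA over TY1 ratio of window counts had the direction of that of list length. Between genotypes the counts did not follow list length. The second R232fs HA list held 98 of 86433 peaks in the window and the second G365R HA list 101 of 30563. Read depth, which the lists do not hold, was not used. With only peaks of −log10 q of 10 or more the HA minus TY1 share of the list was -0.944 per 10000, and with lists of equal length the log2 ratio of window peaks was 0.14, each opposite in sign to the value reported and, like it, past no threshold. Leaving out a clone gave log2 ratios of -0.144 to 0.022, the highest without the second Y287X clone. The distal share differed by 3.76 points with the replicate block and by 8.88 with fold 5 or more, in both of which it passed the threshold. It differed by 4.82 with −log10 q of 10 or more and by 4.8 with equal length, in neither of which it passed. Without a clone it differed by 3.53 to 3.99. The paired test was not run there and could not go below 0.0625. With −log10 q of 10 or more 6 regions were in all 14 lists. With the replicate block the calls were 3 in R232fs, 2 in G365R, 2 for truncating against G365R and 0 for truncating HA against WT HA. The genome-wide shares beside these were 21.7%, 4.08%, 17.1% and 1.22%. In R232fs, G365R and truncating against G365R, the block and ranks of −log10 p gave 2, 3 and 2, beside 22.2%, 22% and 28.4%. The block and regions of at least 10 lists gave 2, 6 and 5 of 43, 45 and 37 window regions, beside 8.75%, 19.6% and 18.1%. The block and windows of 250 bp gave 3, 1 and 2, beside 17%, 1.98% and 13.5%. With the block, leaving out a mutant clone changed the calls as given above, and without the block it gave none. Also without it, ranks of −log10 p gave 1 call in G365R, beside 0.416%, and 1 for truncating against G365R, beside 2.5%. For truncating HA against WT HA they gave 4, beside 29.9%, regions of at least 10 lists 3, beside 11.5%, and windows of 250 bp 0, beside 1.24%. Leaving out a clone also changed the calls of that contrast. The window minus genome share of recurrent regions was 2.66 points in the first R232fs TY1 list with recurrence in 9 or more lists and 3.997 in the WT TY1 list with 4 or more, against -3.21 and -6.34 at 6. The cause of these changes was not tested. Combinations with the block and other recurrence limits were chosen after seeing the data, and contrasts with WT could not be given without the WT clone.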
